A study of Sus scrofa with 3 samples.

Results

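Thrombospondins, tenascin C and fibronectin are secreted glycoproteins of the extracellular matrix (ECM). Their probe sets were taken as every probe set whose symbol in the array's annotation is THBS1, THBS2, THBS4, TNC or FN1. The rule found 11 of 23999 probe sets: 5 for THBS1, 4 for FN1, 1 each for THBS2 and TNC, and 0 for THBS4. The members therefore cover 4 of the 5 genes, out of 6765 genes with a symbol. A probe set that the annotation leaves without a symbol is named THBS4 in the study's own gene table, and its values are given separately.

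RNA came from the last deciduous molar germs of the mandible, dental lamina included, of Wuzhishan miniature pigs, a small breed whose milk teeth are replaced as in humans. Germs of 1 litter were pooled at each of embryonic days 40, 50 and 60 (E40, E50 and E60), and 1 Affymetrix Porcine Genome Array, a 3′ expression array, was run for every pool. By the labels the germ was at cap stage without a secondary dental lamina on E40, at bell stage with that lamina beginning on E50, and at secretory stage on E60, while the methods call E60 late bell. The labels name no treatment or genetic change, and they do not give the number of germs in a pool. Since every stage has a single array, the replicate error is unknown. No p-value is given, and a difference between stages is one between single pools. In such bulk samples, fewer cells of a type and less RNA per cell cannot be told apart.

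Thrombospondins bind calcium, other matrix proteins and cell surface receptors. THBS1 and THBS2 are closely related inhibitors of blood vessel growth, and THBS1 can activate latent TGF-beta, whereas THBS4 belongs to another subgroup and is best known from tendon and muscle. Tenascin C is a large modular protein of condensing mesenchyme, tendon and healing tissue that modulates cell adhesion to fibronectin. Fibronectin forms fibrils on cell surfaces through integrins, and in the tooth germ it lies in the mesenchyme and at the border between epithelium and mesenchyme.

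Values are the deposited MAS 5.0 signals, which carry no unit and are compared only within a probe set. Signals that fell below their array's 25th percentile (the floor) were treated as not measured. The floors of E40, E50 and E60 were 29.3, 17.2 and 21.8. Of the 11 member probe sets, 6 lay above it on all 3 arrays and 5 lay under it on all 3 arrays. The 6 measured ones are the single probe sets of THBS2 and TNC, 2 of THBS1 and 2 of FN1, and all 6 belong to the brighter 50% of probe sets by mean log2 signal. Calls of higher or lower required a difference of over 2-fold.

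**Figure D1:**
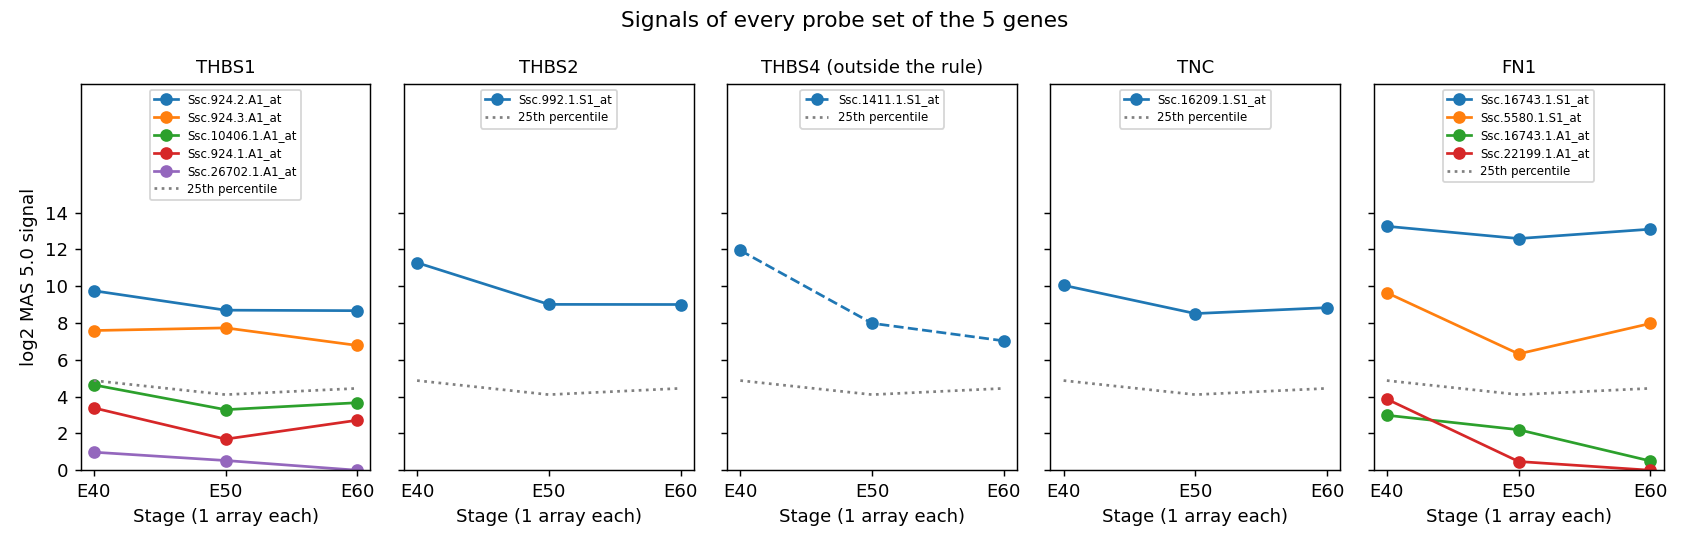
Log2 MAS 5.0 signal (vertical axis) of every probe set of the 5 genes by stage (horizontal axis, 1 array each). Each line is a probe set, the dotted line marks the floor of each array, and the dashed THBS4 line is the probe set named only in the study's gene table. THBS2 goes from 2475.7 on E40 to 515.2 on E50 and 512.9 on E60, and 5 lines of THBS1 and FN1 stay under the dotted line.

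Of the 4 genes, THBS2, TNC and THBS1 were called lower on E50 versus E40 on their brightest probe sets, and FN1 was lower on both measured probe sets but by over 2-fold on only 1 of them. In all, 4 of the 6 measured probe sets were lower by over 2-fold and 0 were higher. Over the whole array 15.6% of the probe sets with a fold change were lower and 2.6% higher in this pair, and among the brighter 50% of probe sets 6.02% were lower. With the arrays scaled to equal medians, by quantile normalization or to housekeeping genes, 3 of the 6 were lower and 0 higher. Over the whole array the lower probe sets numbered 1808, 1636 and 2527 under these scalings, beside 2862 on the deposited scale. The higher share of all called probe sets was 14.3% on the deposited scale, and 44.6%, 42.5% and 19.8% under these scalings in the same order. The median log2 fold change of the 6 was -1.29, beside -0.11 over all probe sets with a fold change.

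The E40 signal of THBS2 was 2475.7, and its signals on E50 and E60 were 515.2 and 512.9. It stood high on E40 alone, with nearly equal signals on both later arrays. It was 4.8-fold lower in the first step (log2 fold change -2.26), and 3.77% of the probe sets with a fold change were lower by as much or more. Between E50 and E60 its log2 fold change was -0.01.

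THBS1 was measured on 2 probe sets, which differed in the first step. The brighter one stood at 860.6 on E40, and at 414.5 and 406.6 on E50 and E60. It was thus 2.08-fold lower in the first step and only 1.02-fold lower in the second. The dimmer one stood at 192.5, 212.7 and 109.9. On this probe set the E60 array was the low one, 1.94-fold under E50, and E50 stood 1.11-fold above E40. By E60 both were lower than on E40, by 2.12-fold and 1.75-fold, of which only the first passed 2-fold. The lower call of THBS1 on E50 thus rests on 1 probe set close to the limit. Scaling the arrays to a common median shifts the median of all probe sets by 0.39 on the log2 scale in this pair. It put the brighter probe set of THBS1 at -0.67, no longer called. The mean of both measured THBS1 probe sets, an alternative chosen after seeing the data, was -0.45 in this pair and -0.95 on E60 versus E40, within 2-fold in both. The other 3 probe sets of THBS1 were under the floor on every array, the highest at 24.9 on E40.

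TNC, on 1 probe set, stood at 1057.0, 364.8 and 455.4. Its E40 signal was again the high one, 2.90-fold above E50 (-1.53 on the log2 scale). From E50 to E60 it was 1.25-fold higher, which left it 2.32-fold under its E40 signal. With equal medians TNC on E60 versus E40 was at -0.91, within the 2-fold limit, while on E50 versus E40 it stayed past it at -1.15.

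FN1 was measured on 2 probe sets that both had their lowest signal on E50, but with very different depths of the dip. The brightest stood at 9747.2, 6145.8 and 8740.8. It was 1.59-fold lower in the first step and 1.42-fold higher in the second, both within the 2-fold limit. The second stood at 799.0, 79.9 and 251.1. Its E50 signal was 10.0-fold under E40, its E60 signal was 3.14-fold above E50, and it remained 3.18-fold under its E40 signal. The E50 signal of this second probe set lay under the array's median of 125.0, so a floor at the 50th percentile raises it. With that floor its log2 fold change was -2.68 in place of -3.32 for the first step. For the second step it was 1.006 in place of 1.65, only just past the 2-fold limit. Between E40 and E60 the brightest probe set differed by only 1.12-fold. The same mean of the measured probe sets of FN1 stood at -1.99 on the log2 scale for the first step and at 1.08 for the second, in place of -0.67 and 0.51 on the brightest, so the call of FN1 depends on the probe set. Both other probe sets of FN1 were under the floor on all arrays, with 14.5 on E40 as the highest signal. One of them shares the cluster number in its name with the brightest probe set and stood at 7.9, 4.6 and 1.4.

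The disagreement within FN1 was measured against other genes. For each gene with at least 2 measured probe sets, the log2 fold changes of its 2 brightest ones were subtracted. On E50 versus E40 the difference had an SD of 0.69 over 1596 genes, and that of FN1 was 2.66. Only 11 of the 1596 genes (0.689%), FN1 included, differed by as much. The 2 probe sets of a gene were not matched for signal. In this pair 15.6% of all probe sets with a fold change were lower, against 6.02% of the brighter 50%. The share of 0.689% thus makes no allowance for the dimmer signal of the second FN1 probe set. On E60 versus E50 the difference of FN1 was -1.14, matched or passed in size by 76 of 1625 genes (4.68%). THBS1 differed by -1.20 in the first pair, and 129 genes (8.08%), THBS1 included, differed by that size or more. The signal of the brightest FN1 probe set was 12.2 times that of the second on E40, 76.9 times on E50 and 34.8 times on E60. Signals of different probe sets are not on a common scale, so only the change of this ratio between arrays can be read.

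**Figure D2:**
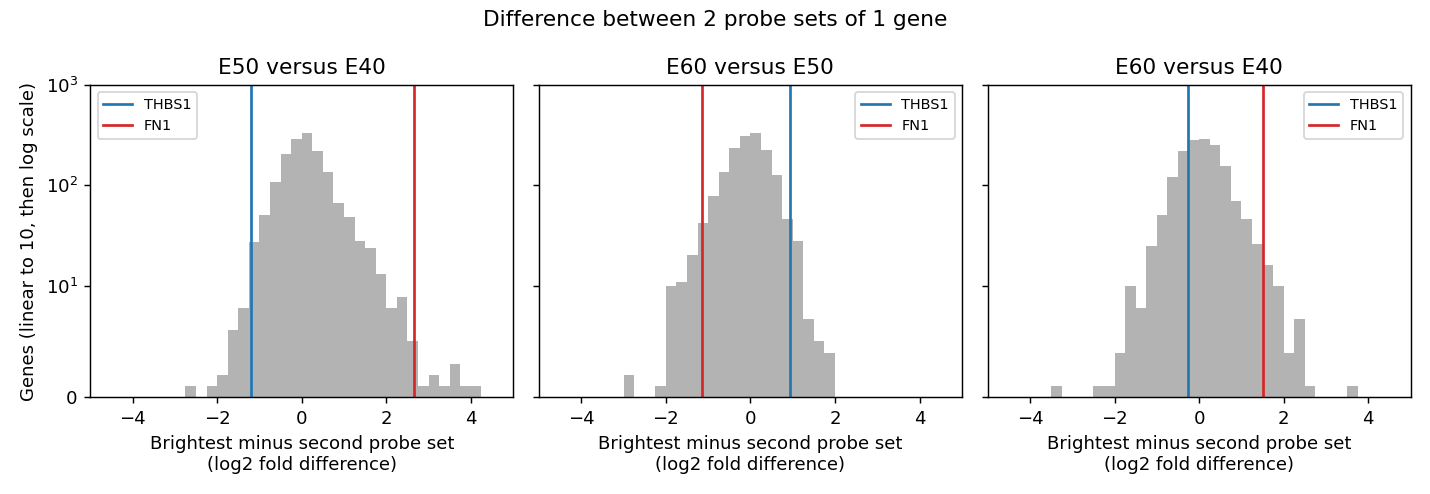
Number of genes (vertical axis, linear to 10 and logarithmic above) by the difference in log2 fold change between the 2 brightest measured probe sets of a gene (horizontal axis), for each pair of stages. Red lines mark FN1 and blue lines THBS1. On E50 versus E40 the FN1 line at 2.66 stands in the thin right tail of the 1596 genes.

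From E50 to E60 THBS2, TNC and the brighter probe set of THBS1 differed by 1.25-fold or less, and 1 of the 6 measured probe sets was called, the second one of FN1, which was higher. The dimmer probe set of THBS1 was 1.94-fold lower, within the limit. It passed the limit under equal medians (-1.031) and housekeeping scaling (-1.002). Over the array 6.37% of the probe sets with a fold change were higher in this pair and 1.88% lower, and 3.01% of the brighter 50% were higher. The median log2 fold change of the 6 probe sets was 0.16, beside 0.02 over all. By their brightest probe sets, 0 of the 4 genes passed 2-fold.

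On E60 versus E40, 4 of the 6 measured probe sets were lower by over 2-fold, namely those of THBS2 and TNC, the brighter one of THBS1 and the second one of FN1. Over the array 12.6% of the probe sets with a fold change were lower and 4.51% higher, and 6.02% of the brighter 50% were lower. The 2 pairs that contain E40 share that array, so their low values are not separate observations.

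**Figure D3:**
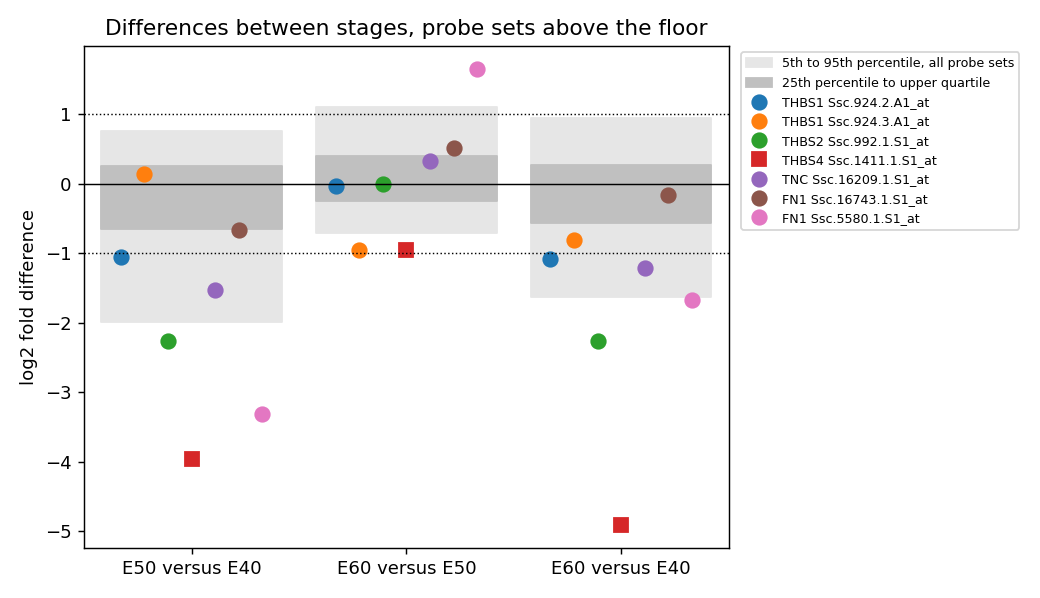
Log2 fold difference (vertical axis) of the 6 measured member probe sets (circles) and of the probe set named THBS4 in the study's gene table (squares) in each pair of stages (horizontal axis). Light and dark grey bands span the 5th to 95th and the 25th to 75th percentile of all probe sets with a fold change, and dotted lines mark 2-fold. In both pairs with E40, THBS2 at -2.26 and -2.27 lies below the light band, whose lower edges are -1.99 and -1.64. The second FN1 probe set, at -3.32 and -1.67, and the THBS4 squares, at -3.96 and -4.91, also lie below it.

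The probe set named THBS4 in the study's gene table differed more between the arrays than any of the 6 measured members on E50 versus E40. Its signals were 3923.4, 252.8 and 130.5 on the successive stages, which is 15.5-fold lower in the first step and 1.94-fold lower again in the second. Its log2 fold change on E60 versus E40 was -4.91, and 0.209% of the probe sets with a fold change were lower by as much. The table that names it was made by the study from genes that differed on these arrays, so its direction is no separate evidence, and the array annotation used here does not carry the name.

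Every probe set of the other genes of both families with a symbol also stood lower on E50 than on E40. By the brightest probe sets, 0 of the 2 other thrombospondins and 1 of 1 other tenascin were called lower. Beside this, 8.14% of all genes with a fold change by their brightest probe set were lower in this pair, and 15.6% of all probe sets. THBS3, a further thrombospondin, had 3 probe sets. The brightest stood at 166.9, 83.6 and 74.3, just within 2-fold in the first step and 2.25-fold lower by E60. A second stood at 118.8, 30.1 and 40.7, 3.95-fold lower on E50, and the third at 39.4 on E40 and under the floor afterwards, at least 2.29-fold lower on E50. COMP, the cartilage oligomeric matrix protein and also a thrombospondin, was dim, and its 2 probe sets went apart by E60. The first stood at 30.3, 19.0 and 43.9, and the second at 69.4 on E40 but under the floor on E50 and E60. TNXB, which encodes tenascin X of loose connective tissue, stood at 110.8, 23.4 and 15.2, the last under the floor. Its first step was 4.73-fold lower, a call that was lost with a floor at the 50th percentile. The other listed tenascins, TNN and TNR, carry no symbol in the annotation.

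The wider set of genes written down for comparison held 99 symbols in 7 lists: the 2 family lists above, other matricellular glycoproteins, receptors, proteins of matrix assembly and cleavage, TGF-beta genes and focal adhesion proteins. A probe set was found for 49 of them, each represented by its brightest. On E50 versus E40, 7 of 49 genes were lower and 1 was higher, and the median of their log2 fold changes was -0.10. Over all genes with a fold change by their brightest probe set, 8.14% were lower and 2.79% higher, and the median was 0.06. On E60 versus E50, 4 of 47 were higher and 0 lower, beside 4.41% and 1.76% of all genes. On E60 versus E40, 4 of 49 were higher and 4 lower, beside 4.49% and 7.3%.

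Of the 8 other matricellular glycoproteins, 1 was lower on E50 than on E40. It was POSTN, which encodes periostin, a partner of tenascin C and fibronectin in collagen-rich matrix, at 7621.1, 2641.4 and 4668.4 (2.89-fold lower, then 1.77-fold higher). SPARC, the collagen-binding osteonectin, stood at 20266.1, 15964.7 and 21697.6 and SPP1, osteopontin, at 6186.0, 4538.5 and 5663.5. Both had their lowest signal on E50, within 2-fold. FBLN1, the fibronectin-binding fibulin, went the other way at 4397.1, 6806.6 and 9730.0, 2.21-fold above its E40 signal by E60. NID2, a nidogen of basement membranes, stood at 946.2, 638.9 and 1464.1 and was called in the last step, 2.29-fold higher. VTN, the gene of vitronectin, was under the floor on E40 and at 59.4 on E60, at least 2.03-fold higher.

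Among the 14 measured receptors, 2 were lower on E50 than on E40 and the rest were within 2-fold. ITGB3, the chain of the vitronectin receptor that also binds fibronectin and thrombospondin, stood at 229.2, 75.0 and 215.9, 3.06-fold lower on E50 and 2.88-fold higher again on E60. CACNA2D1, a calcium channel subunit that binds thrombospondins, stood at 156.6, 53.6 and 89.3 (2.92-fold lower on E50). ITGA5, the chain specific to the classical fibronectin receptor, stood at 147.8, 75.2 and 117.6, a difference of 1.96-fold that did not pass. Its partner ITGB1 stood at 5915.2, 5602.6 and 7140.7. The shared chain ITGAV stood at 2148.3, 3057.9 and 2686.5 with its high value on E50. ITGA8, which pairs with ITGB1 to bind fibronectin and tenascin C, was the 1 receptor past 2-fold on E60 versus E40, at 73.2, 110.7 and 184.0 (2.51-fold higher). CD47, a thrombospondin receptor, stood at 428.1, 332.4 and 541.8. The 4 brightest genes of the list, ANXA2, ITGB1, EGFR and CALR, were within 2-fold in every pair.

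Among the 10 genes of matrix assembly and cleavage with a probe set, FBN1, the microfibril protein fibrillin, was at the limit (2632.2, 1311.7 and 2066.5, 2.01-fold lower on E50). MMP3, a protease that cleaves fibronectin and tenascin C, was lower by at least 3.79-fold, from 65.3 to a signal under the floor. MMP2, a gelatinase, stood at 4684.2, 3410.6 and 4707.9, lowest on E50 but within 2-fold. TIMP1, a protease inhibitor, stood at 3282.1, 3671.1 and 5924.2, also within it.

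TGFB1, whose latent protein thrombospondin 1 can activate, stood at 263.3, 596.1 and 1826.5, the 1 gene of the 49 that was higher on E50 than on E40. TGFBR3, a coreceptor, was lower by at least 3.54-fold on E50, from 60.9. TGFBR1, SMAD4, TGFB2 and TGFB3 stayed within 2-fold in every pair. The 7 focal adhesion genes, which act inside the cell where integrins attach, gave 0 calls in any pair. VCL, the gene of vinculin, stood at 5637.1, 5686.4 and 4779.5, and the widest difference was that of the caveolin gene CAV1 (2635.6, 1700.7 and 3214.4).

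**Figure D4:**
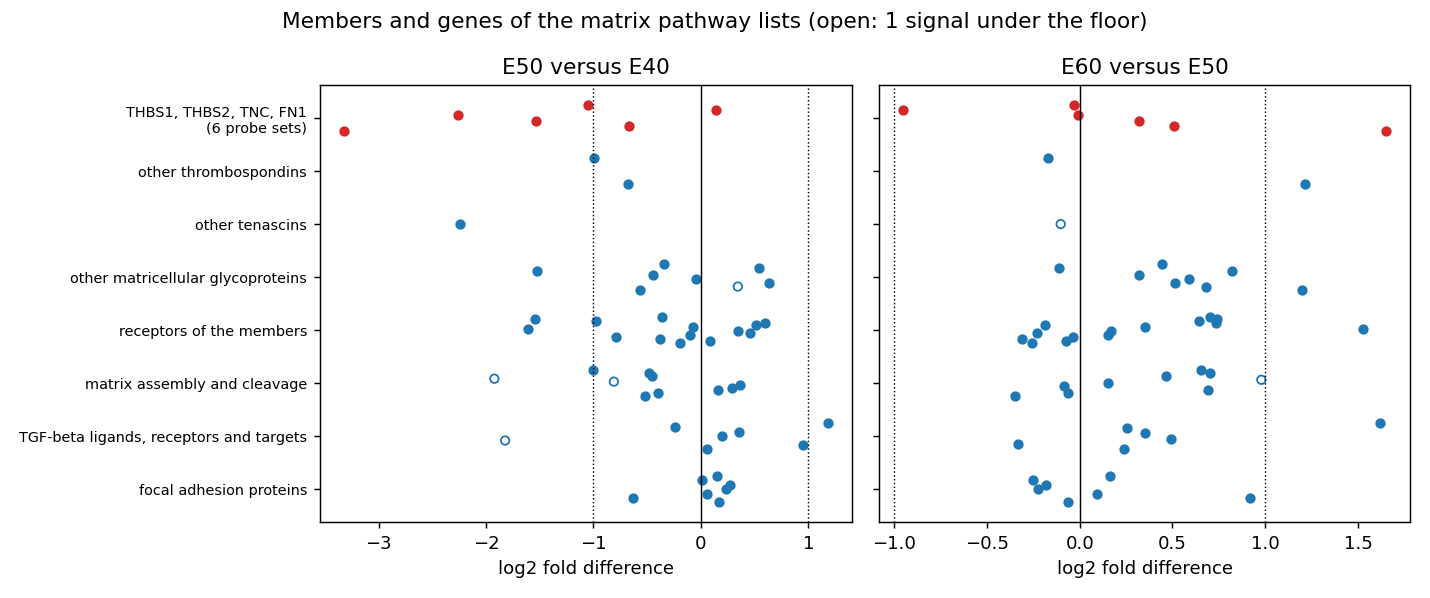
Log2 fold difference (horizontal axes) of the 6 measured member probe sets (red) and of the genes of the 7 lists by their brightest probe sets (blue), on E50 versus E40 (left) and E60 versus E50 (right). Dotted lines mark 2-fold and open circles have 1 signal under the floor. On the left 4 of 6 red points and 7 of 49 blue points lie below the lower limit, and all 7 focal adhesion genes lie between the limits.

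Markers of other cell types differed between the arrays over the same step. Of the 15 skeletal muscle markers with a fold change, 15 were called lower on E50 versus E40. Their summed signals were 44651.0, 1082.2 and 3795.5 on the successive stages, and the brightest over the arrays were MYL1, a muscle myosin light chain gene, and TNNC2, a troponin gene. The E60 sum was mostly MYL1, which stood at 7116.4, 481.2 and 3266.3. From E50 to E60 the muscle list had a median log2 fold change of -0.10, and 8 of its 11 genes with a fold change stayed within 2-fold. Of the 3 keratinised epithelium markers with a fold change, 2 were lower on E50, and the summed signal was 6366.2, 1845.1 and 2340.7. The brightest were KRT10, a keratin gene that was within 2-fold on E50 versus E40, and CST6, a protease inhibitor gene, which was lower. The E50 and E60 sums were mostly KRT10, which stood at 1320.7, 1713.5 and 2275.5, while CST6 stood at 1783.0, 109.1 and 32.4. IVL, the involucrin gene, was at 3255.2 on E40, under the floor on E50 and at 27.4 on E60. KRT1 lay under the floor on all arrays. The summed signal of endothelial markers had its low point on E50, at 3236.4, 1846.8 and 2782.9. In this list 3 of the 8 genes with a fold change were lower on E50, namely CDH5, TEK and TIE1. Over all genes by their brightest probe set 8.14% were lower in this pair. PECAM1 and CDH5 were the brightest, and PECAM1 was just within 2-fold. ENG went the other way in the first step, at 166.5, 173.5 and 128.1, and KDR lay under the floor on all arrays. The parts of muscle, keratinised epithelium and endothelium in the values of THBS1, THBS2, TNC and FN1 were not tested.

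The other lists gave fewer lower calls on E50 versus E40. Platelet markers, listed because platelets store thrombospondin 1, summed to 278.0, 192.0 and 257.7 with 0 of the 3 genes with a fold change called on E50 versus E40 and PPBP under the floor on every array. Tendon and loose connective tissue markers summed to 18360.4, 16660.4 and 20390.7, which was mostly LUM and DCN, with 1 of 4 genes lower on E50. It was COL1A2, a collagen gene, at 470.4, 205.6 and 472.7. COL3A1, also a collagen gene, stood at 59.9, 32.4 and 74.0. Both were called higher on E60 versus E50. The median log2 fold change of the list was -0.58 on E50 versus E40. In that list SCX, MKX and TNMD, the defining tendon genes, carry no symbol in the annotation. Smooth muscle and pericyte markers summed to 7757.1, 6827.0 and 7756.9, with PDGFRB and TAGLN the brightest and 1 of 5 lower and 1 higher on E50. Macrophage markers summed to 783.6, 686.6 and 995.7, and 1 of the 4 with a fold change was lower on E50. It was TYROBP, at 100.7 on E40 and at least 5.85-fold lower, while the brightest, AIF1 and MRC1, were within 2-fold in opposite directions, and the median log2 fold change of the list was -0.81. Cartilage markers summed to 655.8, 3411.8 and 5281.1, which was mostly HAPLN1, a hyaluronan link protein gene, and COL2A1, which defines cartilage, stood at 76.4, 48.8 and 80.6. Of its 5 genes, HAPLN1 was higher on E50 and ACAN, the aggrecan gene, was lower (89.6, 44.4 and 25.3), and the median log2 fold change was -0.65, opposite in sign to the change of the sum. Schwann and nerve markers, mainly S100B, summed to 409.5, 895.5 and 918.8. The 10 housekeeping genes, GAPDH and RPS18 among them, were centred at a log2 fold change of 0.04 (median) between E40 and E50, with 0 past 2-fold in that pair.

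The label of the tissue was checked in the same way. Genes of dental epithelium summed to 7553.6, 15647.8 and 55243.5. AMBN, the ameloblastin gene of the enamel matrix, and AMELX, the amelogenin gene, were higher in each step. The E60 sum was mostly these genes, at 29942.0 and 16881.4. EPCAM, with CDH1 the brightest of the list, stood at 3186.2, 6188.5 and 3655.0. It was within 2-fold in every pair, and lower in the second step. CDH1, an epithelial cadherin, and VIM, vimentin of mesenchyme, were bright on every array and within 2-fold. Of the 3 genes of dental mesenchyme and odontoblasts with a fold change on E50 versus E40, 1 was higher and 1 lower. MSX1, a transcription factor gene of dental mesenchyme, stood at 1559.0, 737.1 and 1213.7, 2.12-fold lower on E50. DSPP, the gene of dentin sialophosphoprotein, was under the floor on E40 and at 80.3 and 4194.5 afterwards. The parts of these cells in the values of THBS1, THBS2, TNC and FN1 were not tested. The tooth germ transcription factor genes PAX9 and BARX1 carry no symbol in the annotation.

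**Figure D5:**
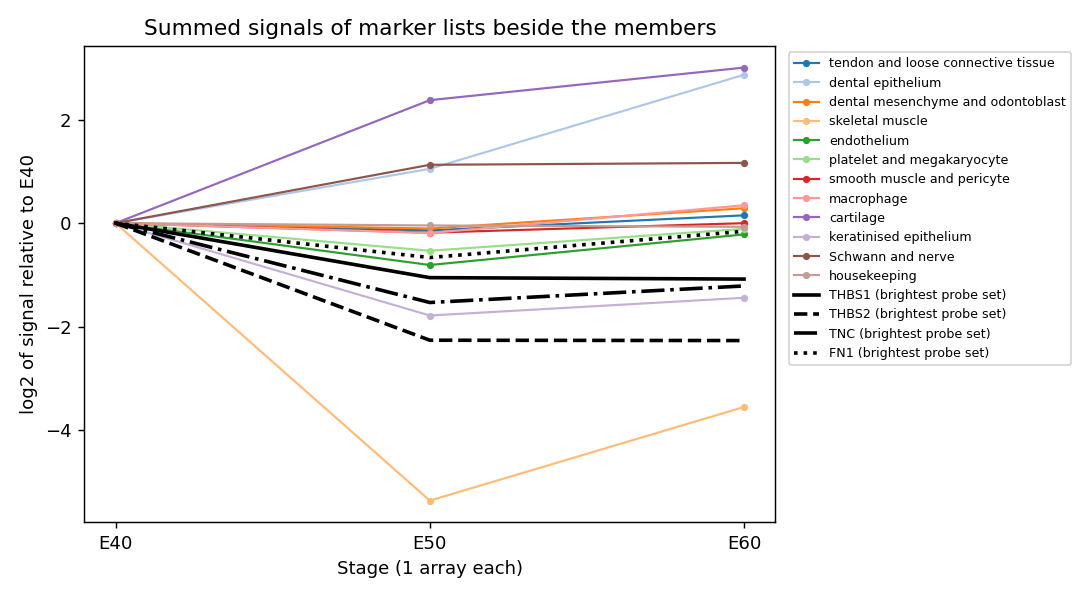
Log2 of the summed signal of each marker list relative to E40 (vertical axis) by stage (horizontal axis, 1 array each), with the brightest probe sets of THBS1, THBS2, TNC and FN1 in black. Skeletal muscle drops furthest, from 44651.0 to 1082.2, while the black lines end between THBS2 (-2.27) and FN1 (-0.16).

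The genes whose course was most like that of each member were found by the distance between their 2 steps on the log2 scale, over 5746 genes above the floor on all 3 arrays. With 3 arrays a course is only a pair of numbers, so many genes share it. Within a distance of 0.25 there were 248 genes for the brightest probe set of FN1, 103 for THBS1, 40 for TNC and 6 for THBS2. The 3 nearest to THBS2 were BPHL, a hydrolase gene, LOC100514340, a locus without a gene name, and FAP, which encodes a protease of activated fibroblasts and stood at 660.8, 143.7 and 147.1. Nearest to TNC were GON4L, NR3C1, the glucocorticoid receptor gene, at 337.0, 113.1 and 136.2, and KCNIP4. Nearest to THBS1 were TMEM38A, GPAM and TEAD1, a transcription factor gene of the Hippo pathway. CTPS1, KIAA1191 and RBM26 were nearest to FN1. For the second FN1 probe set 2 genes lay within 0.25, SRP19 and SNX14. For the probe set named THBS4, 3 genes lay within 0.25: SLN, the muscle gene of sarcolipin, at 1178.6, 75.3 and 38.7 and a distance of 0.014, SERPINB11, a protease inhibitor gene, and PGAM2, the muscle phosphoglycerate mutase gene.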

How the data were processed

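Total RNA of the pooled germs was labelled with the 3′ IVT kit, and arrays were scanned with Command Console 3.1. The authors computed MAS 5.0 signals in GeneSpring 11.0 and deposited log2 values. The mean signal without the brightest and dimmest 2% was checked and is 495.4, 495.0 and 494.9 on E40, E50 and E60, so equal means were set before deposit. Detection calls were not used here. Of 24123 rows, 124 array controls were left out. Symbols came from the platform annotation, with 1 symbol on 10069 probe sets, several on 198 and none on 13732.

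Signals under the 25th percentile of their array were raised to it. Where 1 of the signals was raised, the fold change bounds the true one from below and is written "at least", and no fold change is given where both signals lay under it or the raised one passed the other. Each comparison is between 1 array and 1 array, with no test. Their number limits the precision, of which the difference between probe sets of a gene is the only measure here, and it includes differences between probes. For listed genes the brightest probe set by mean log2 signal was used. From each comparison list at most 4 bright genes, and the largest called differences with both signals measured, were to be named, and at most 2 bright genes from each marker list. CD47, ITGA5, ITGAV, CAV1, MMP3, TGFBR3, VTN, AMBN, AMELX, DSPP, TYROBP, ACAN, IVL, KRT1, KDR, PPBP, COL1A2, COL3A1, TEK, TIE1 and ENG fall outside this rule. They were named after their values were seen, as were the genes listed without a symbol. The members and lists were chosen with earlier results of these data known. The alternatives changed the floor, the scaling, the fold limit or the choice of probe sets, and the rule for fold changes was tested on simulated data. Python 3.11.15, numpy 2.4.6, pandas 2.3.3 and scipy 1.17.1 were used. Sequences and genome positions were not used here.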

Additional observations from a re-analysis of the deposited data

How the results depend on the processing

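The 12 log2 fold changes of THBS1, THBS2, TNC and FN1 on their brightest probe sets were recalculated 96 times, but in 48 of these the value could not change, since these probe sets lie above every floor tried and THBS2 and TNC have 1 probe set each. Of the other 48, 12 changed the call. THBS1 on E50 versus E40 was within the limit under equal medians (-0.67), quantile normalization (-0.97), housekeeping scaling (-0.96) and the mean over measured probe sets (-0.45), and on E60 versus E40 under equal medians (-0.77) and the mean over measured probe sets (-0.95). TNC on E60 versus E40 was within it under equal medians (-0.91), and FN1 as a mean over measured probe sets passed it on E50 versus E40 (-1.99) and E60 versus E50 (1.08), and was at -0.91 on E60 versus E40. That mean was chosen after seeing the data. The planned mean over all probe sets, which also changed the calls of THBS1 in both pairs with E40 (-0.64 and -0.63) and of FN1 on E50 versus E40 (-1.38), takes in dim probe sets that add only the difference between the floors. The calls of THBS2 were the same under every scaling.

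Member probe sets lower on E50 versus E40 numbered 7 without a floor and 2 at 3-fold, not 4. Counts without a floor are out of all 11 member probe sets, including the 5 treated as not measured, and the others are out of 6. On E60 versus E50, 2 were higher without a floor, not 1, and 1 was lower, not 0, without a floor, under equal medians and under housekeeping scaling. Under both scalings the lower one was the dimmer measured probe set of THBS1. On E60 versus E40, 2 were lower under equal medians and at 3-fold, not 4, and without a floor 6. Of the listed genes, the higher ones on E50 versus E40 numbered 3 under equal medians, 4 under quantile normalization, 2 under housekeeping scaling and 0 at 3-fold, not 1, and the lower ones 2 with a floor at the 50th percentile and 4 at 3-fold, not 7. Higher ones on E60 versus E50 numbered 2 and 1 under those last settings, not 4. On E60 versus E40 the higher ones numbered 2 and 1, not 4, and the lower ones 0 and 1, not 4. The cause was not tested beyond the settings' own construction.

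On the deposited scale 14.3% of all called probe sets were higher on E50 versus E40. The share was 44.6% under equal medians, 42.5% under quantile normalization and 19.8% under housekeeping scaling. In the same order the shares were 77.2%, 68.9%, 59.5% and 72.5% for E50 to E60. For E40 to E60 they were 26.4%, 52.6%, 47.5% and 30.0%. None of the member probe sets carries a suffix for shared matches. No paired analysis was possible because each stage has 1 array. With 1 array a stage, no replicate could be left out.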
